A study of Mus musculus with 8 samples.

Results

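The miR-29 family of mouse serum is described here through the 5 mature miRNAs listed for it on the array: mmu-miR-29a-3p, mmu-miR-29b-3p, mmu-miR-29c-3p, mmu-miR-29a-5p and mmu-miR-29c-5p. They were chosen by name, by a rule that uses no measured value, although earlier results of these arrays were known, and are 5 of the 1881 mouse miRNAs measured. Serum came from male C57BL/6NJcl mice that were 8 weeks old when X-irradiated. The 7 Gy group of 4 sera was compared with the non-irradiated 0 Gy group of 4 sera, and per the study's description the irradiated sera were those of 72 h. From each serum, 30 ng of total RNA was labelled with Cy3 and hybridised to a 1-colour Agilent mouse miRNA array, so that every value below is 1 array and 1 serum. A dose of this size depletes bone marrow and blood cells. In serum, fewer cells releasing a miRNA and less release per cell cannot be told apart.

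A miRNA hairpin is cut into a duplex, and usually one arm is kept as the guide that an Argonaute protein loads, while the other is mostly degraded. The 3p arms are the guide strands of the miR-29 family. Through their shared seed they repress mRNAs for collagens, elastin and other extracellular matrix proteins, the DNA methyltransferases Dnmt3a and Dnmt3b, and the survival factor Mcl1. Low miR-29 is known from fibrotic heart, liver, kidney and lung.

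The mature sequences are shown first because the 3p arms differ by few bases and the 5p arms do not share a seed. They are RefSeq sequences on GRCm38.p6, written 5′ to 3′, and capitals mark the seed (bases 2 to 8).
miR-29a-3p: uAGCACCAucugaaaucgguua
miR-29b-3p: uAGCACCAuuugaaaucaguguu
miR-29c-3p: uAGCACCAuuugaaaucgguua
miR-29a-5p: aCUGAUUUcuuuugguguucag
miR-29c-5p: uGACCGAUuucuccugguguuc
All 5 were found in the table by name. The seed AGCACCA occurs in 3 of the 1679 mature miRNAs of that table, which are the 3p arms above. Counted from the 5′ end, miR-29a-3p and miR-29c-3p differ only by C10U (miR-29a-3p first) and are identical at 21 of 22 positions. Over the 22 positions compared, miR-29a-3p and miR-29b-3p differ by C10U, G18A, U21G and A22U, and miR-29b-3p and miR-29c-3p by A18G, G21U and U22A. In addition, miR-29b-3p is 23 bases long and the other 3p arms are 22. The 5p arms start at different points: miR-29a-5p and miR-29c-5p are identical at 5 of 22 positions when read from base 1, and at 17 of 20 when miR-29c-5p is shifted by 2 bases, so that their seeds differ.

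The family is encoded in pairs on separate chromosomes. Mir29a lies on the minus strand at chr6:31062660-31062747, with Mir29b-1 275 bases away and no other annotated gene over either hairpin. Mir29c lies on the plus strand at chr1:195037547-195037634, with Mir29b-2 426 bases away, and both lie inside the annotated span of the lncRNA gene A330023F24Rik. Mature miR-29b-3p can come from either chromosome and the array cannot tell its copies apart. Mir29a and Mir29c, the hairpins from which both arms are among the 5 miRNAs, are shown to place the arms, which are in capitals (5p, then 3p).
Mir29a: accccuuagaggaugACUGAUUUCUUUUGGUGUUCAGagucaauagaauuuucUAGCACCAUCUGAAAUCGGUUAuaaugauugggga
Mir29c: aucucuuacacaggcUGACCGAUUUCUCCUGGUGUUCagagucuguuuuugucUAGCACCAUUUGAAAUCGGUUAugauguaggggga

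The 8 arrays lay on 1 slide and differed in quality. Between 378 and 687 miRNAs were called detected per array, and 3 of the 4 irradiated arrays (7 Gy replicates 1, 3 and 4) had labelling spike-ins below the range that the scanner software accepts. These spike-ins are synthetic RNAs added at the labelling step. Their signal was 2.31, 1.95 and 1.97 on the log10 scale on those arrays, 3.35 on 7 Gy replicate 2, and 2.73 to 3.68 on the 0 Gy arrays. Hybridization spike-ins were in range on all 8. The irradiated arrays also occupied other slide columns than the 0 Gy arrays, so that column and dose cannot be told apart. The values below are total signals in array units, brought to the same 90th percentile on every array as the methods describe. For the fold changes, signals under 100 were set to a floor of 100 and log2 was taken.

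miR-29a-3p was the member with a scaled signal above the floor on every array. At 0 Gy its scaled signals in replicates 1 to 4 were 4637, 3148, 2978 and 3424, and at 7 Gy they were 1190, 2558, 288 and 517. Those of 7 Gy replicates 1 and 3 were 275 and 62.1 before scaling, which multiplied them by 4.33 and 4.63. All 4 irradiated sera lay below all 4 non-irradiated sera, and replicate 2 lay closest to them. Such a separation towards lower signal at 7 Gy was seen in 5.29% of the 208 miRNAs tested. The mean was 3547 ± 750 at 0 Gy and 1138 ± 1021 at 7 Gy (SD, n = 4 each). Against the geometric mean of the 0 Gy arrays, 7 Gy replicate 1 was 2.94-fold lower, replicate 2 was 1.37-fold lower, replicate 3 was 12.1-fold lower and replicate 4 was 6.76-fold lower. On this fold scale the irradiated sera spread more widely than the others. The log2 fold change was -2.09 (SE 0.65, 95% interval -3.62 to -0.56), with a limma p of 0.0143 that became an adjusted p of 0.117 over all tested miRNAs. A two-sided exact permutation test gave p = 0.0286, the smallest that 4 against 4 arrays allow. miR-29a-3p is on the list of changed miRNAs that the study drew from these same arrays, so its separation here is not independent of that choice.

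miR-29c-3p, which differs from miR-29a-3p by 1 base, gave a like ordering of the arrays, except that 7 Gy replicate 2 had the highest value of all. In the 0 Gy sera its scaled signals were 811, 613, 416 and 842, and in the 7 Gy sera 135, 849, 26.9 and 80.5. Replicates 1, 3 and 4 of the irradiated group lay below every 0 Gy serum, while replicate 2 made the groups overlap. The mean was 670 ± 198 at 0 Gy and 273 ± 387 at 7 Gy (SD, n = 4 each). Replicates 1, 3 and 4 were 4.79-fold, 24.0-fold and 8.02-fold below the geometric mean of the 0 Gy arrays, and replicate 2 was 1.31-fold above it. The order of the low arrays was that of miR-29a-3p. With replicates 3 and 4 at the floor, the log2 fold change was -1.81 (SE 0.72, 95% interval -3.50 to -0.12; limma adjusted p = 0.150), and the two-sided exact permutation test gave p = 0.143.

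miR-29b-3p was dim, and its fold change on the floored scale says little. Its scaled signals were 125, 90.01, 5.96 and 93.0 at 0 Gy. At 7 Gy it was not detected in replicates 1, 3 and 4 and was 76.3 in replicate 2. 0 Gy replicate 3 thus lay far below the other 0 Gy arrays, and 7 Gy replicate 2 close to them. For the arrays without detection an upper limit was set at the higher of the lowest scaled signal of a detected miRNA and the summed signal of miR-29b-3p's own probes. By it, the total signal in 7 Gy replicates 1, 3 and 4 was at least 10.4-fold, 15.7-fold and 59.2-fold below the geometric mean of the 0 Gy arrays. The plain spot means of its single probes, which were not well above background there, stood 3.72-fold to 64.8-fold below, so that the limits hold for the total signal alone. With 3 of the 0 Gy arrays and all 4 irradiated arrays at the floor, the log2 fold change was -0.08 (SE 0.11, 95% interval -0.33 to 0.17; limma adjusted p = 0.617).

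**Figure D1:**
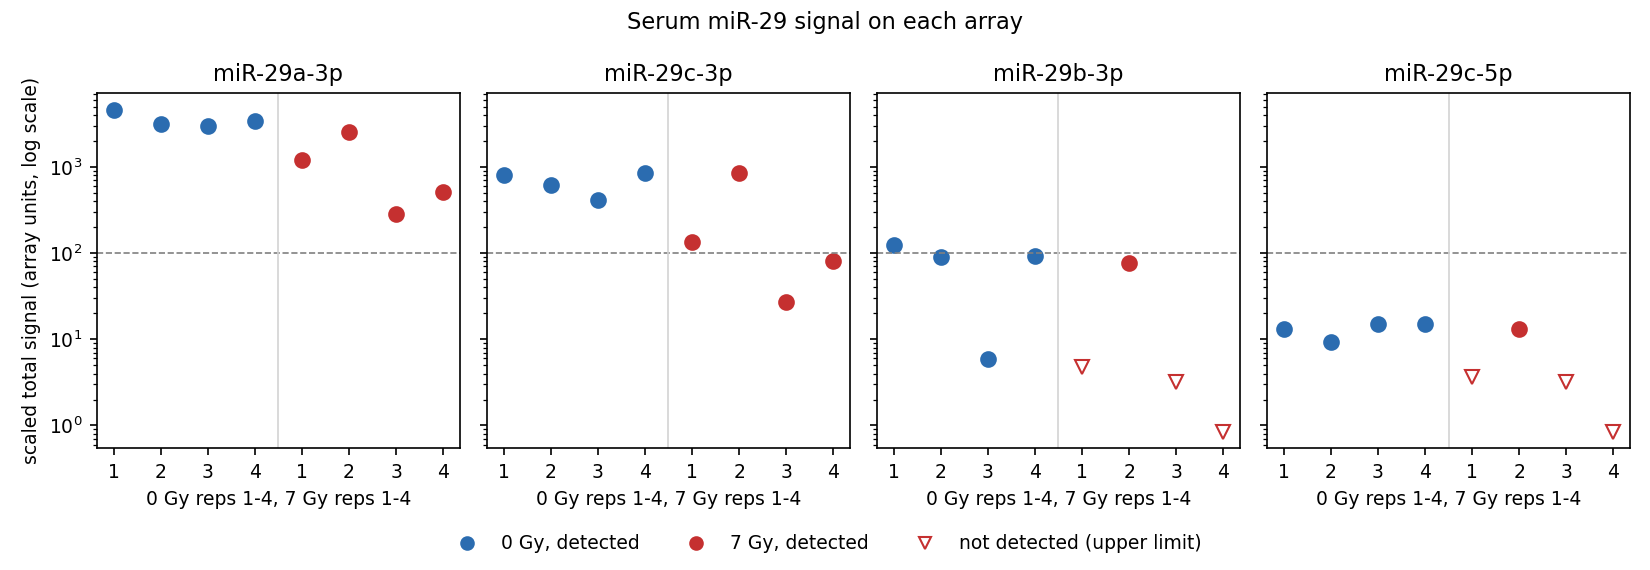
Scaled total signal (array units, log scale) of miR-29a-3p, miR-29c-3p, miR-29b-3p and miR-29c-5p on each of the 8 arrays, numbered by replicate, with the 0 Gy group in blue and the 7 Gy group in red. Each point is 1 array, open triangles stand at the upper limit on arrays without detection, and the floor of 100 is drawn as a dashed line. 7 Gy replicate 2 lies near the 0 Gy arrays in every panel.

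None of the 3 tested members passed an adjusted p of 0.05 in limma. At an unadjusted limma p under 0.05, 2 of the 3 did so, where 16 of all 208 tested miRNAs were lower at 7 Gy and 46 were higher. By the methods' t-test 1 of the 3 did, with unadjusted values of 0.0250 for miR-29a-3p, 0.0589 for miR-29c-3p and 0.356 for miR-29b-3p. That test with a 1.5-fold limit placed 6.73% of the tested miRNAs lower at 7 Gy. Over all 208 miRNAs, 1.92% were called lower at 7 Gy by limma at an adjusted p under 0.05. All 3 fold changes were below 0, with a median of -1.81. That of miR-29b-3p could not lie above 0, since all 4 irradiated arrays were at the floor, so its sign adds nothing. Of all 208 tested miRNAs, 84 were below 0, and the median of the 208 was 0.17.

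The 5p arms, the strands usually discarded, were near or below detection. miR-29c-5p gave 13.1, 9.33, 15.0 and 15.0 at 0 Gy. At 7 Gy it was not detected in replicates 1, 3 and 4 and was 13.0 in replicate 2. This is the detection pattern of miR-29b-3p, at signals that all lay under the floor, so that no fold change was tested. Against the geometric mean of the 0 Gy arrays, the total signal in replicates 1, 3 and 4 was at least 3.57-fold, 4.06-fold and 15.3-fold lower, and the spot means of single probes were 2.01-fold to 18.3-fold lower. With a floor of 1 in place of 100, its log2 fold change was -2.76 (limma adjusted p = 0.103). miR-29a-5p was detected on 0 Gy replicate 1 (0.579) and 7 Gy replicate 2 (1.04) alone, the former at the edge of detection.

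miR-29b-3p and miR-29c-5p were each detected on 4 of 4 arrays at 0 Gy and 1 of 4 at 7 Gy (Fisher's exact test, two-sided, p = 0.143 each). The background to this count is that 7.34% of the 804 miRNAs detected anywhere were on all 4 of the 0 Gy arrays and on at most 1 irradiated array, and 6.97% were on 7 Gy replicate 2 as the sole irradiated array. Of the 5 members, 5, 4, 4 and 4 were detected on the 0 Gy arrays and 2, 5, 2 and 2 on the irradiated ones. The difference in means was -1.5 members per array (4.25 ± 0.5 and 2.75 ± 1.5, SD, n = 4 each; two-sided exact permutation test, p = 0.143). Without 7 Gy replicate 2 it was -2.25 (p = 0.0286 by the same exact test). Whether fewer detections reflect less miR-29 or less labelled RNA on those arrays was not tested.

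miR-29a-3p and miR-29c-3p were set against each other on the same array, where differences in scaling cancel as long as no floor is applied. The log2 difference of their signals, miR-29a-3p minus miR-29c-3p, was 2.52, 2.36, 2.84 and 2.02 in the 0 Gy sera and 3.14, 1.59, 3.42 and 2.68 in the 7 Gy sera, without a floor. The groups overlapped. With the floor, the response of miR-29a-3p exceeded that of miR-29c-3p by -0.28 (95% interval -1.30 to 0.74; two-sided exact permutation test, p = 0.543, adjusted over 3 pairs 0.543), and without the floor the difference was 0.27 (interval -0.79 to 1.34), a comparison added after the data were seen. These intervals leave room for unequal responses in either direction. Against miR-29b-3p, held at the floor on most arrays, miR-29a-3p differed by -2.01 (interval -3.71 to -0.31; exact permutation p = 0.0286, adjusted 0.0857) and miR-29c-3p by 1.73 when subtracted from miR-29b-3p (interval -0.16 to 3.62; exact permutation p = 0.143, adjusted 0.214). With a floor of 1 the first of these turned to 1.99 and the second to -1.72, so that neither orders the responses.

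Each 3p arm and miR-29c-5p was read by 2 probes of 15 spots each, and all 8 of these probes were lower at 7 Gy in the mean. For miR-29a-3p, probe A_54_P2488 fell by 2.64 and probe A_54_P2489 by 1.74 on the log2 scale (two-sided exact permutation test, p = 0.0571 and 0.0286, both 0.171 after adjustment over 12 probes). The miR-29c-3p probes A_54_P2492 and A_54_P2493 differed by -2.14 and -2.21 (exact permutation p = 0.114 and 0.143, both 0.214 adjusted). No probe of the 12 passed after adjustment. The 4 probes of miR-29a-5p lay at background, except that A_54_P3463 had all 7 of its spots above background on 7 Gy replicate 2.

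**Figure D2:**
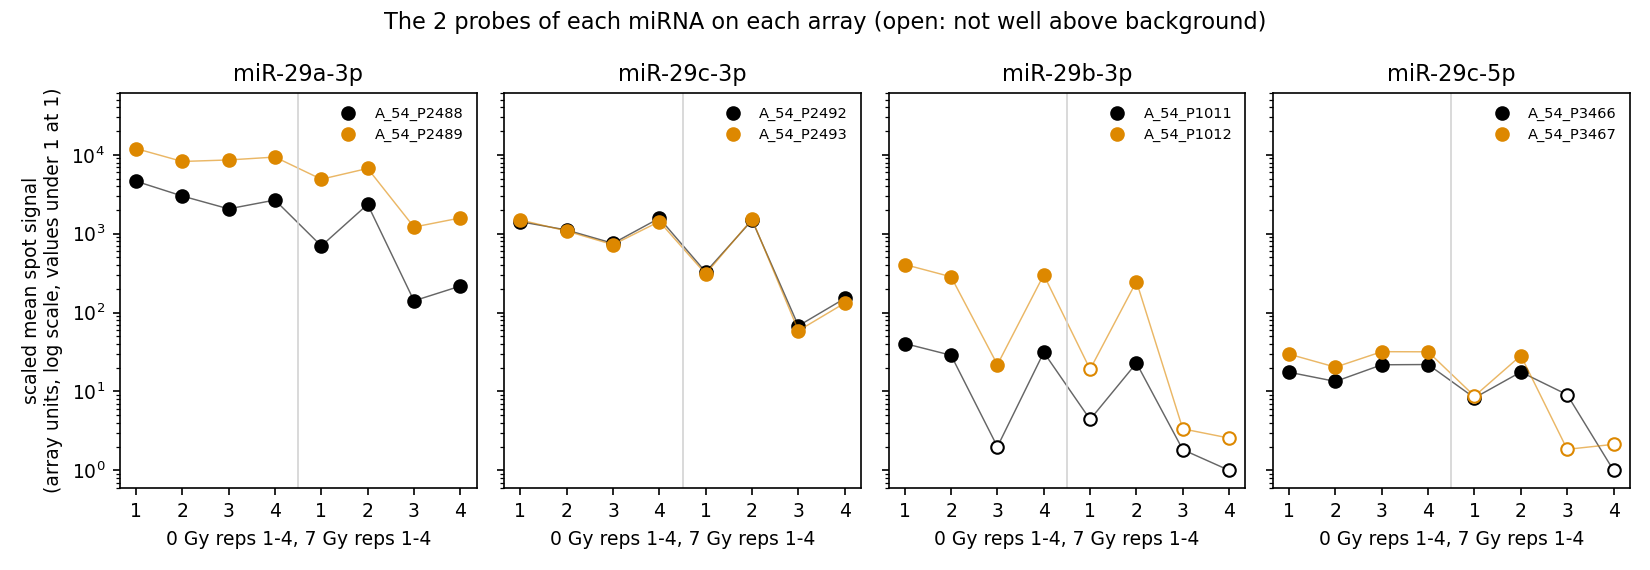
Scaled mean spot signal (array units, log scale, values under 1 drawn at 1) of the 2 probes of each miRNA on each array by replicate, 0 Gy on the left and 7 Gy on the right of the grey line. Open circles are probes with no spot well above background, and the lines join the arrays only to guide the eye. The probes of miR-29c-3p run together, whereas those of miR-29a-3p are further apart on 7 Gy replicates 1, 3 and 4.

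The fold change of miR-29a-3p was larger for one of its probes than for the other, though the difference between them did not pass its test. The signal of A_54_P2488 over that of A_54_P2489 was 0.385, 0.365, 0.240 and 0.285 in the 0 Gy sera and, in the same order of replicates, 0.143, 0.350, 0.116 and 0.137 at 7 Gy. The 3 low ratios were on the arrays with labelling spike-ins out of range. The log2 ratio was lower at 7 Gy, the difference being -0.90 (exact permutation test, two-sided, p = 0.0857, adjusted over 2 ratios 0.171), a comparison chosen after the data were seen. The same ratio for miR-29c-3p was 0.951, 1.03, 1.04 and 1.10 in the 0 Gy sera and 1.06, 0.970, 1.15 and 1.14 in the 7 Gy sera, a log2 difference of 0.07 (exact permutation p = 0.4).

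**Figure D3:**
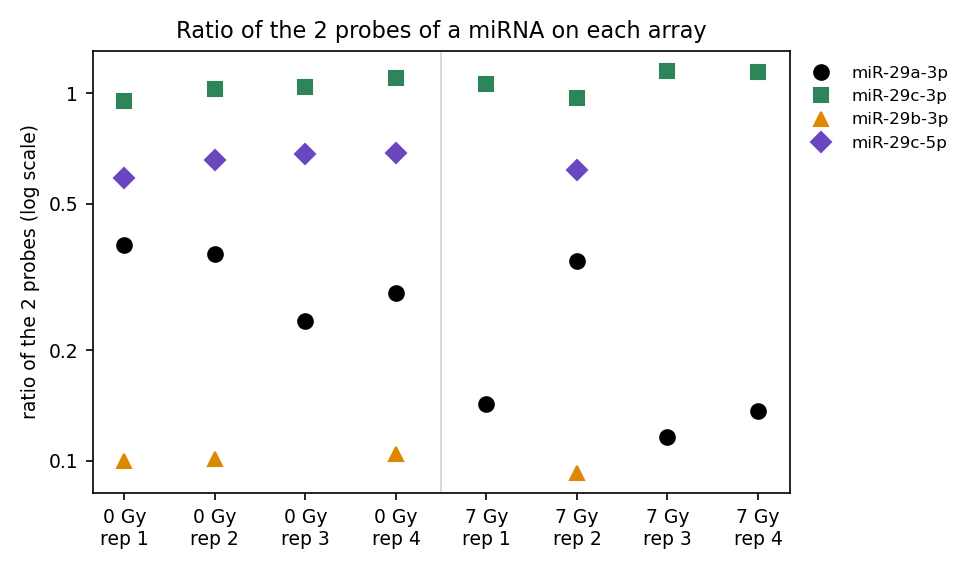
Signal ratio between the 2 probes of each miRNA (log scale) on each array, with 1 point per array and miRNA where both probes were well above background. The miR-29a-3p ratio is 0.116 to 0.143 on 7 Gy replicates 1, 3 and 4 and 0.240 to 0.385 on the other arrays, whereas the miR-29c-3p ratio stays between 0.951 and 1.15.

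The arrays with low miR-29 were those with low labelling spike-ins. miR-29b-3p and miR-29c-5p were detected on all 5 arrays with labelling spike-ins in range and on none of the 3 out of range. When the fit was adjusted for this spike-in signal, the log2 fold change was -0.70 (SE 0.52; limma adjusted p = 0.705) for miR-29a-3p and -0.09 (SE 0.36; limma adjusted p = 0.994) for miR-29c-3p. Over the 5 in-range arrays, with 7 Gy replicate 2 as the lone irradiated serum and its spread assumed to be that of the 0 Gy arrays, the values were -0.45 and 0.39 (limma adjusted p = 0.901 for both). Scaling to the labelling spike-ins gave -0.33 for both miRNAs, and over the 191 miRNAs tested both ways it moved the median by 1.05. Leaving the signals unscaled gave -3.18 and -2.18, and over the 202 miRNAs tested both ways it moved the median by -0.31. Both miRNAs lay below the shifted median in each case.

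**Figure D4:**
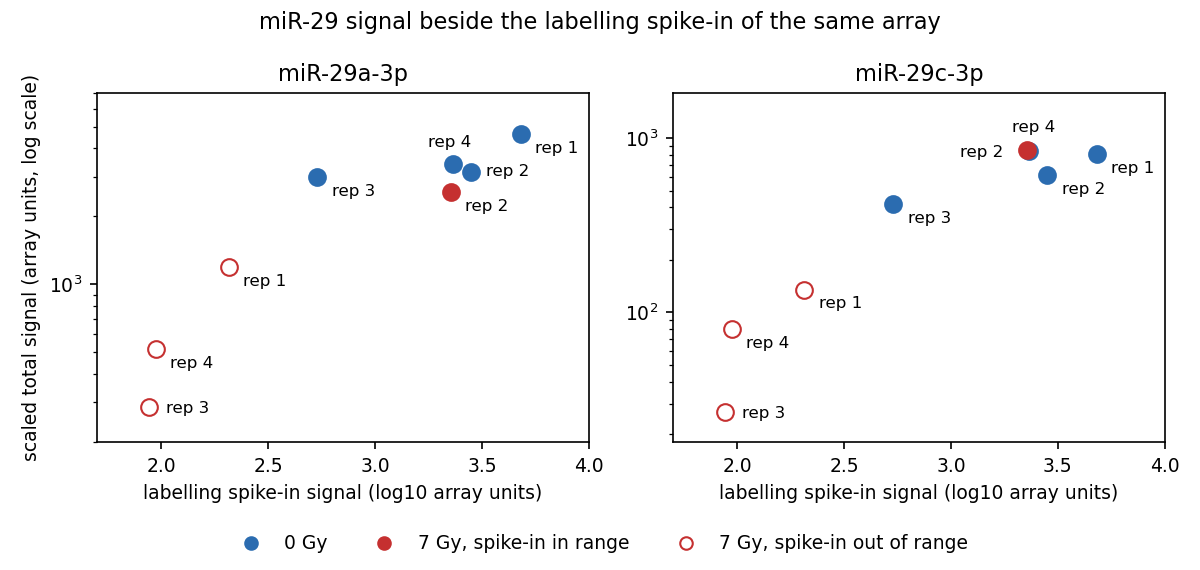
Scaled total signal (array units, log scale) of miR-29a-3p and miR-29c-3p against the labelling spike-in signal of the same array (log10 array units), with 1 point per array and open circles for irradiated arrays with spike-ins out of range. The 3 open circles hold the lowest signals of both miRNAs, and 7 Gy replicate 2 lies among the 0 Gy arrays.

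Leaving out 7 Gy replicate 2 brought miR-29a-3p and miR-29c-3p past the threshold, with a log2 fold change of -2.64 (limma adjusted p = 0.0089) and -2.41 (limma adjusted p = 0.0025), but not miR-29b-3p (-0.03, limma adjusted p = 0.782), where 5.73% of tested miRNAs were called lower. With a floor of 1 in addition, miR-29b-3p (-5.64, limma adjusted p = 0.0019) and miR-29c-5p (-3.69, limma adjusted p = 0.00057) passed as well, where 16.1% were called lower, settings that were joined after the data were seen. With a floor of 1, miR-29c-5p was at -1.06 (limma adjusted p = 0.667) with the spike-in covariate and at 0.01 (limma adjusted p = 0.998) over the in-range arrays, and with normexp background correction it was at 0.04 (limma adjusted p = 0.935). In the fits without 7 Gy replicate 2, the irradiated arrays that remained were those with labelling spike-ins out of range. The slide held replicates 1 and 2 of both groups in its first row and replicates 3 and 4 in its second. With the row as a block, miR-29a-3p passed (-2.09, limma adjusted p = 0.0431) and miR-29c-3p did not (-1.81, limma adjusted p = 0.107), where 3.85% were called lower. Within row 1 the values were -1.13 and -1.06 (limma adjusted p = 0.499 and 0.655), and within row 2 they were -3.05 and -2.56 (limma adjusted p = 0.0276 and 0.0351; 5.23% called lower), with 2 arrays a group. Row 2 held 2 irradiated arrays with spike-ins out of range and row 1 held 1. Array weights, which give poorly fitting arrays less influence, called both (-2.15 and -2.35, limma adjusted p = 0.0140 and 0.0052; 6.73% called lower), and normexp background correction called miR-29a-3p (-2.51, limma adjusted p = 0.0472; 2.53% called lower).

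**Figure D5:**
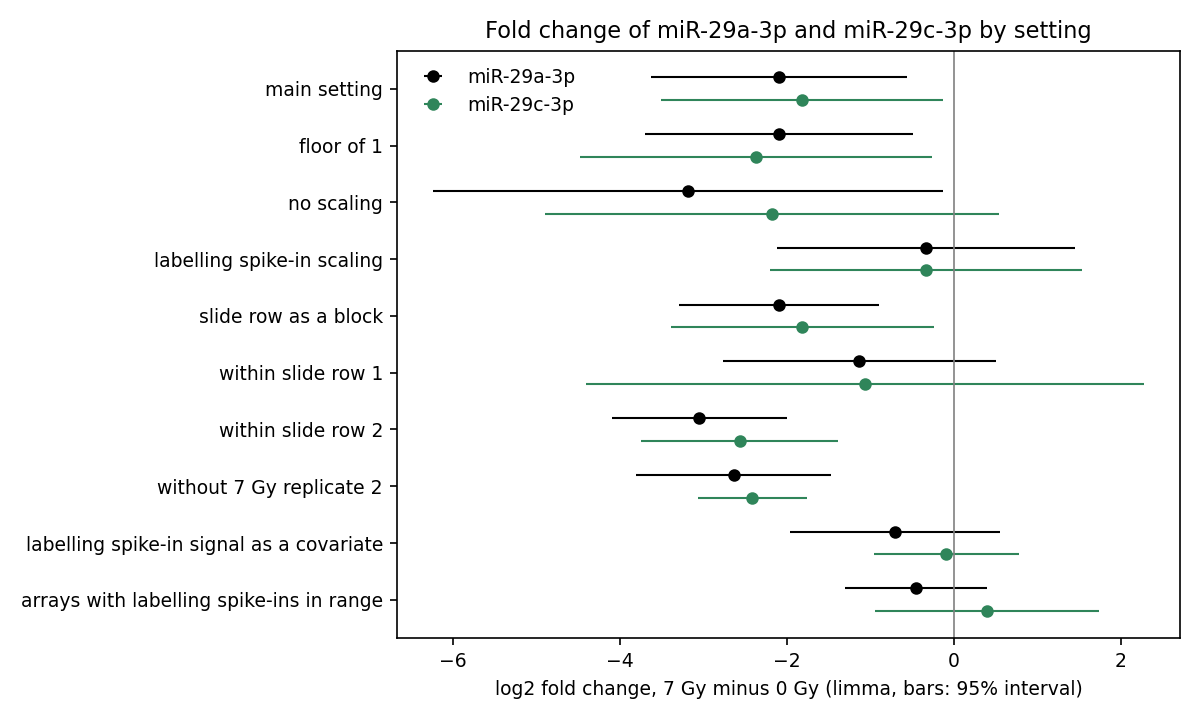
Log2 fold change of miR-29a-3p and miR-29c-3p (7 Gy minus 0 Gy, limma) under 10 settings, with 95% intervals as bars. The points lie below 0 in every setting shown except miR-29c-3p over the in-range arrays (0.39), and the intervals of both cross 0 under the spike-in covariate, under spike-in scaling, within slide row 1 and over the in-range arrays.

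Of the other 205 tested miRNAs, those whose signals ran most like miR-29a-3p over the 8 arrays were found by the root mean square difference of centred log2 signals. They were miR-30e-5p (0.502), miR-92a-3p (0.786) and miR-140-3p (0.854), where the median of all tested was 1.57. miR-29c-3p itself stood at 0.528 from miR-29a-3p, between the first and the second of these. Nearest to miR-29c-3p were miR-30e-5p (0.666), miR-125b-5p (0.805) and miR-92a-3p (0.808), after miR-29a-3p. Their log2 fold changes were -1.47 for miR-30e-5p, -2.90 for miR-92a-3p, -2.71 for miR-140-3p and -1.88 for miR-125b-5p (limma adjusted p = 0.117, 0.0510, 0.0474 and 0.259).

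Among other miRNAs tied to fibrosis, 4 of 10 listed were tested, none was called by limma, and all 4 lay below 0 with a median of -1.05. They were miR-21a-5p, which rises in many fibrotic tissues (-2.62, limma adjusted p = 0.185), miR-26a-5p (-1.12), miR-30c-5p (-0.98) and the muscle miRNA miR-133a-3p (-0.97). With all 4 irradiated sera at the floor, miR-26a-5p could not lie above 0. Of 6 miRNAs known to target DNA methyltransferases, as miR-29 does, 2 were tested and neither was called, miR-148a-3p at -0.15 and miR-148b-3p at -0.02. The floor held both in all 4 irradiated sera and in 3 of 4 sera at 0 Gy, which sets these values near 0. Of 13 p53-related miRNAs, 7 were tested and none was called, with 5 below 0 and a median of -0.31. Of those tested, miR-15a-5p (-1.34) and miR-16-5p (-2.13) are also on the erythroid list below, and miR-145a-5p (0.64) on the stromal list. The p53-related miR-34b-3p, miR-34c-5p and miR-34c-3p were detected on no array.

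miRNAs that mark cells shedding into blood were measured on the same arrays, and limma called none of them. All 5 tested erythroid miRNAs of 6 on the array lay below 0 (median -1.34), though miR-144-3p only just (-0.0048, SE 0.079). The summed scaled signal of the list was 16485 to 82115 at 0 Gy and 7322 to 25820 at 7 Gy. The erythroid miR-451a, which is released when red cells lyse, stood at -5.34 (limma adjusted p = 0.129), with 3 irradiated arrays at the floor. Its scaled signals varied widely at 0 Gy, at 67369, 39046, 2762 and 5570. With 14871 on 7 Gy replicate 2, its groups overlapped. miR-486a-5p, also erythroid and on no array at the floor, stood at -0.46 (limma adjusted p = 0.705). Its scaled signal in non-irradiated replicates 1 to 4 read 6501, 8009, 34551 and 10752. Irradiated replicates, taken in that order, had 12661, 2282, 25788 and 7312, so that the groups overlapped. All 6 tested leukocyte miRNAs of 7 lay below 0 (median -0.47), with sums of 545 to 2077 at 0 Gy and 122 to 492 at 7 Gy. Among them, miR-142a-3p and miR-181a-5p were at the floor in all 4 irradiated sera and so could not lie above 0. miR-142a-5p lay only just below it (-0.049, SE 0.088). Single signals did overlap, as for miR-342-3p, at 469 on 7 Gy replicate 1 and 161 on 0 Gy replicate 3. All 3 tested platelet and endothelial miRNAs of 4 lay below 0 (median -0.32), with sums of 776 to 932 and 124 to 578, the highest irradiated sum being 7 Gy replicate 2. Of these, miR-221-3p was also at the floor in all 4 irradiated sera. By contrast, miR-222-3p, which the study lists as decreased, was on no array at the floor (-1.83, limma adjusted p = 0.0522). Its irradiated signals, 119 to 307, all lay under the non-irradiated range of 351 to 892. The lowest of them came from 7 Gy replicate 2 (119), whereas miR-126a-3p had its highest signal there (398). The hepatocyte list (1 of 2 tested, 0.01) summed to 5.26 to 442 at 0 Gy and 0 to 807 at 7 Gy, where the 807 was 7 Gy replicate 2 and miR-122-5p was not detected on the other irradiated arrays. The stromal list (1 of 5 tested, miR-145a-5p at 0.64) summed to 51.3 to 255 and 145 to 394. With all 4 non-irradiated sera at the floor, miR-145a-5p could not lie below 0. The part of these cells in the miR-29 values was not tested.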

How the data were processed

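Serum RNA of 4 non-irradiated and 4 irradiated mice was profiled on 1 slide, grouped by the treatment label. The deposited intensity values came from Agilent Feature Extraction (version 11.5 per the submitters' notes), in which the authors had background subtracted and the probes of a miRNA summed, with no normalization between arrays. Undetected miRNAs carry a fixed low value. Control probes were left out and no spot was saturated.

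Total signals were scaled so that each array's 90th percentile matched the geometric mean over arrays, floored at 100 and taken to log2. The methods name a cut-off of 100 without saying whether it replaced or filtered values. Tested were 208 miRNAs detected on at least 3 of 8 arrays and above the floor on at least 1. The test between groups was limma's (version 3.58.1, R 4.3.3; functions lmFit and eBayes), and p-values were adjusted over all 208 by Benjamini-Hochberg. For single values, pairs and probes, exact permutation tests were used, two-sided (smallest p 0.0286). p-values measure the spread between these arrays, 1 per serum, in which differences of serum and of labelling cannot be told apart. Precision is limited by how few arrays there are. Probe signals were scaled alike with a floor of 1. For an undetected miRNA, the upper limit on an array was the lowest scaled signal of a detected miRNA or, if higher, the summed positive signal of its own probes. The fit was tested on simulated data.

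Named were the 5 members, the other arms of their hairpins, the 3 miRNAs nearest to each member that spanned at least 1 on the log2 scale, and up to 4 tested miRNAs of each list. Members and lists were chosen with earlier results of these data known. Sequences are RefSeq's on GRCm38.p6. Replicate numbers were not taken as pairs. Alternatives covered scaling, floor, background correction, filter, slide row, array weights, spike-ins and each array left out.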

Additional observations from a re-analysis of the deposited data

Results flagged for a closer look

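In a group of 4 arrays, a sample was marked when its gap to the nearest other array was a larger part of the group's range than Dixon's 95% critical value. For values without ties, chance alone does so in about 1 in 20 groups. Where the gap over range was 1, the other arrays of the group were tied at the floor. The floor fixed the ratio there, so the rate does not apply to those marks. Of the 6 values marked, 4 were 7 Gy replicate 2, the irradiated array with labelling spike-ins in range. For miR-29c-3p its log2 signal was 9.73 and the next was 7.08 (gap over range 0.860). With a floor of 1, it was the irradiated array with a signal for miR-29b-3p (6.25), miR-29c-5p (3.70) and miR-29a-5p (0.06), where the other irradiated arrays were at 0 (gap over range 1 in each).

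The remaining 2 concern miR-29b-3p at 0 Gy. Replicate 1 was the one array above the floor of 100 (log2 signal 6.96 against 6.64, gap over range 1), and with a floor of 1 replicate 3 lay below the rest (2.57 against 6.49, gap over range 0.893).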

How the results depend on the processing

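Across the alternatives, miR-29a-3p kept a negative log2 fold change in all of them. It passed an adjusted p of 0.05 in limma with the slide row as a block (-2.09), array weights (-2.15), normexp background correction (-2.51), within slide row 2 (-3.05) and without 7 Gy replicate 2 (-2.64, also with a floor of 1). miR-29c-3p passed with array weights (-2.35), within slide row 2 (-2.56), and without 7 Gy replicate 2 with a floor of 100 (-2.41) or 1 (-3.28), and it turned to 0.39 over the in-range arrays (labelling spike-ins in range), with either floor. miR-29b-3p was -4.08 with a floor of 1 (limma adjusted p = 0.133), -5.64 with that floor and without 7 Gy replicate 2 (limma adjusted p = 0.0019), 0.17 with that floor and the labelling covariate, and 0.61 with that floor over the in-range arrays. The within-row fits and the settings that join a floor of 1 with another change were chosen after seeing the data. Leaving out each array in turn gave -2.64 to -1.59 for miR-29a-3p, -0.25 to -0.03 for miR-29b-3p (7 fits, since without 0 Gy replicate 1 it lay at the floor throughout), -2.41 to -1.50 for miR-29c-3p and -2.25 to -1.25 for the members detected per array. The cause of these moves was not tested.

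Differences of response between members depended on the floor. miR-29a-3p minus miR-29c-3p was 0.23 with a floor of 30 and 0.27 with a floor of 10 or 1 or with mean spot signals. miR-29a-3p minus miR-29b-3p was 1.99 with a floor of 1 and 1.53 with mean spot signals. miR-29b-3p minus miR-29c-3p was -1.72 and -1.25 under these and -0.47 over the in-range arrays. With each array left out they ranged from -0.42 to 0.037, -2.61 to -1.33 and 1.37 to 2.38, and without 7 Gy replicate 2 the last 2 pairs reached -2.61 and 2.38 (exact permutation test, p = 0.0429 adjusted over 3 pairs for both). Without scaling, probes A_54_P3461 and A_54_P3462 of miR-29a-5p turned to -0.10 and -0.017.

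Against 4 miRNAs called higher and 4 called lower by limma, array weights gave 61 and 14, the slide row as a block 18 and 8, the 75th percentile of miRNAs detected on all arrays 7 and 11, the 90th percentile of them 6 and 1, a floor of 10 9 and 19, a floor of 30 2 and 3, a floor of 1 2 and 6, normexp 2 and 16, quantile normalization 2 and 4, mean spot signals 5 and 20, a trended and robust prior 0 and 4 (unadjusted 37 and 24), and the in-range arrays 1 and 0 (unadjusted 10 and 3). The methods' t-test gave 34 and 14 at its own threshold and 1 and 1 after Benjamini-Hochberg. Limma called 0 and 0 with hybridization spike-in scaling (10 and 11 at an unadjusted p under 0.05), labelling spike-in scaling (26 and 3), the labelling covariate (12 and 21) and no scaling (1 and 17). With each array left out, 0 to 48 were called higher and 0 to 11 lower, the highest of both without 7 Gy replicate 2. The 75th percentile over all miRNAs was not run, since it is the undetected value on some arrays.

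Samples with the same replicate number did not all deviate together (correlations -0.34, 0.43, 0.55 and 0.42 for replicates 1 to 4), so the numbers were not taken as pairs. With the replicate block, 0 and 0 were called (47 and 18 at an unadjusted p under 0.05), and miR-29a-3p stood at -2.09 (limma adjusted p = 0.113), miR-29b-3p at -0.08 and miR-29c-3p at -1.81.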

Other observations

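The remaining arms of the miR-29b hairpins, the discarded strands of Mir29b-1 and Mir29b-2, were also on the array. miR-29b-1-5p was detected on 0 Gy replicate 1 alone, with an unscaled signal of 2.42, and miR-29b-2-5p on no array.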
